A study of Mus musculus with 6 samples.

Results

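The genes described here are 8 feedback genes of cytokine signalling, the SOCS family members Cish, Socs1, Socs2, Socs3 and Socs5 and the Pim kinases Pim1, Pim2 and Pim3. They were chosen by name, as every probe set whose annotated gene symbol was one of the 8, out of 15964 genes named on the arrays. That gave 16 of 36899 probe sets, with 11 on the array type called SubA, 5 on SubB and 0 on SubC, so the members' values come from 4 of the 6 arrays of the series. Total RNA came from mouse CD8+ T cells grown in culture. The donors of the cells were female P14 mice on the C57Bl/6 background, which carry a transgenic T cell receptor. Spleen and lymph node cells were stimulated with the receptor's peptide for 2 days, and then received IL-15 or IL-2 for 7 days. Cells grown in IL-15 and sorted for a high level of a surface homing receptor are called central memory (CM) cells. Cells grown in IL-2 and sorted for a low level of it are called effector/effector memory (E/EM) cells. Both kinds are cells of a single receptor specificity made in culture, not memory cells taken from an animal, and since they differ in both cytokine and sort, the effects of the 2 cannot be told apart. The number of mice behind each sample is not stated in the labels. Each kind was hybridised to 1 array of each type, so there is no replicate, no test and no p-value, and each value describes these arrays. A lower share of cells making a transcript and less of it per cell cannot be told apart in such bulk RNA.

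IL-2 and IL-15 signal through a shared pair of receptor chains, the kinases JAK1 and JAK3 and the transcription factor STAT5, and each cytokine adds a private alpha chain. SOCS proteins, including CIS, the product of Cish, are made when STAT proteins are active and in turn bind activated receptors or JAKs through an SH2 domain, while their SOCS box recruits a ubiquitin ligase. Pim kinases are also made on cytokine signalling. They are serine/threonine kinases that need no activating phosphorylation, so their amount sets their activity, and they promote survival and protein synthesis.

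Of the 8 genes, Pim3 and Cish had the lowest signal in CM relative to E/EM cells, each a little over 2-fold lower, followed by Pim2. Socs3 was higher in CM cells on each of its 3 probe sets. Socs1 and Pim1 differed little between the 2 kinds of cells, and Socs2 was lower in CM cells by less than 2-fold. The mean ratio of Socs5 was about as large as the spread of its probe sets. All ratios are log2 of CM over E/EM intensity, so a negative value is a lower signal in CM cells. A gene's ratio is the mean over its probe sets whose intensity exceeded the floor of the array type on both arrays, and its SD is the spread over these probe sets, which is technical. The floor, taken from control probe sets for bacterial transcripts, was an intensity of 31.28 on SubA and 88.12 on SubB. Of the 16 probe sets, 14 exceeded it on both arrays, all 14 by at least 2 times, and each of the 8 genes had at least 1 such probe set.

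**Figure D1:**
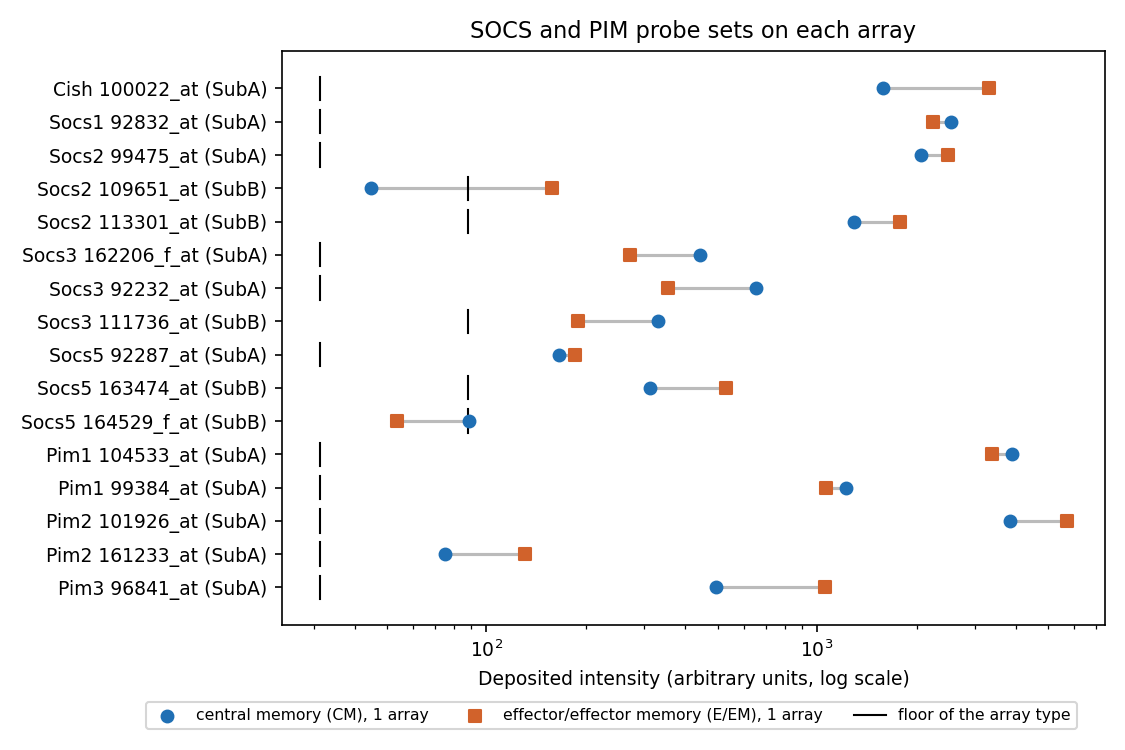
Deposited intensity (arbitrary units, log axis) of the 16 SOCS and PIM probe sets in CM cells (circles) and E/EM cells (squares), 1 array each, with the floor of the array type as a black tick. Cish, Pim2 and Pim3 lie lower in CM cells and the 3 Socs3 probe sets lie higher there. The brightness of different probe sets is not comparable between genes.

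Among the SOCS genes, Cish encodes CIS, which binds the IL-2 receptor complex and also restrains T cell receptor signalling. Its single probe set had an intensity of 1579.9 in CM and 3319.6 in E/EM cells. The CM signal was the lower one, 2.10-fold, a log2 ratio of -1.07. Both signals lay far above the floor, the weaker one by 50.5 times. Of the 7963 SubA probe sets measured on both arrays, 3.73% had a lower ratio than Cish. Among the 500 probe sets of the closest mean signal, the middle 90% of ratios ran from -0.69 to 0.55, and Cish lay below that band. The band holds real differences between the cells as well as noise, so it describes the spread and is not a test. With 1 probe set, the technical spread of Cish itself was not measured.

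Socs3 encodes the SOCS protein that acts on receptors signalling through gp130, the shared chain of the IL-6 family, and is a known STAT3 target. The SubA probe set 92232_at had 653.6 in CM and 353.5 in E/EM cells. The second SubA probe set, 162206_f_at, had 443.8 and 272, and the SubB probe set 111736_at had 329.9 and 189. Each of the 3 was higher in CM cells, by 1.85-fold, 1.63-fold and 1.75-fold in that order. The gene's log2 ratio was 0.80 ± 0.09 (SD, 3 probe sets), a spread well under the difference from 0. It did not reach 2-fold. Only 92232_at, at 0.89, lay above the middle 90% of its 500 neighbours in signal, which ended at 0.68. The other two lay inside their bands, 162206_f_at at 0.71 under an upper end of 0.80 and 111736_at at 0.80 under 0.94. The suffix of 162206_f_at marks a probe set that can detect several related transcripts.

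Socs1, whose product inhibits JAK kinases directly and limits interferon and common gamma chain cytokine signals, had 2548.6 in CM and 2236.5 in E/EM cells on its single probe set. These signals were close, a log2 ratio of 0.19. The ratio is smaller than the median SD between probe sets of a gene on these arrays, 0.32 over 4094 genes with at least 2 measured probe sets, so the 2 kinds of cells are not distinguished by it.

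Socs2, a SOCS gene best known as a brake on growth hormone signalling and a STAT5 target, had 3 probe sets. The SubA probe set 99475_at had 2063.6 in CM and 2493.1 in E/EM cells, a log2 ratio of -0.27. The SubB probe set 113301_at had 1295.4 and 1779.1, a log2 ratio of -0.46. The third, 109651_at on SubB, was faint, with 44.9 in CM cells, under the floor, and 158.2 in E/EM cells, so it gives only a bound of at least 1.80-fold lower in CM cells. All 3 probe sets had the lower signal in CM cells. The gene's ratio was -0.37 ± 0.13 (SD, 2 probe sets), and -0.85 when the floor was halved so that the faint probe set entered.

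Socs5, whose product has been linked to the IL-4 and epidermal growth factor receptors, was measured unevenly. The SubB probe set 163474_at had 312.4 in CM and 531 in E/EM cells, a log2 ratio of -0.77. The SubA probe set 92287_at had 166.1 and 185.6, a log2 ratio of -0.16. A further SubB probe set, 164529_f_at, had 88.3 and 53.6, with its CM signal at the floor, so it gives no usable fold. The 2 measured probe sets point the same way but differ in size, and the faint one had its higher signal in CM cells. The mean of -0.46 ± 0.43 (SD, 2 probe sets) is about as large as its spread, so no difference in Socs5 is distinguished from the disagreement of its probe sets.

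The STAT proteins bind DNA at the sequence TTCNNNGAA, in which N is any base. The motif reads the same on both strands. The promoter windows of RefSeq (build GRCm38.p6), 250 bases before to 50 after an annotated start, were searched for it, and 6 of the 8 genes had a window, Pim1 having 2. The windows of Cish and Socs3 are shown because they were the only ones of the 7 with a match and because these 2 SOCS genes had opposite ratios. That of Pim3 is shown as the gene with a ratio like that of Cish but no match. Capitals mark the matches. The Cish window is chr9:107296409-107296708 on the plus strand, the Socs3 window chr11:117969317-117969616 on the minus strand and the Pim3 window chr15:88861944-88862243 on the plus strand.
Cish: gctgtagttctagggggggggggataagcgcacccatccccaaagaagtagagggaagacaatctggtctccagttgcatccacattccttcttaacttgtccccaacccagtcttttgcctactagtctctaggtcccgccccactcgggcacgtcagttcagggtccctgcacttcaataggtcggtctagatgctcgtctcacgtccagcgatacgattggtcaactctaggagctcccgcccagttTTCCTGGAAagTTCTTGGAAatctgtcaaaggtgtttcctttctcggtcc
Socs3: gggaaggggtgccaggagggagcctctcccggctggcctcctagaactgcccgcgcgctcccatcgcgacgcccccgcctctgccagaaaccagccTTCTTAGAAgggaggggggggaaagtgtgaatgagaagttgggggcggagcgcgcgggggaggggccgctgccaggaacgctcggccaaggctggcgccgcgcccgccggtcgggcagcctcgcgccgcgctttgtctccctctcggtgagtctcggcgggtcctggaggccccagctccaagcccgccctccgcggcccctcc
Pim3: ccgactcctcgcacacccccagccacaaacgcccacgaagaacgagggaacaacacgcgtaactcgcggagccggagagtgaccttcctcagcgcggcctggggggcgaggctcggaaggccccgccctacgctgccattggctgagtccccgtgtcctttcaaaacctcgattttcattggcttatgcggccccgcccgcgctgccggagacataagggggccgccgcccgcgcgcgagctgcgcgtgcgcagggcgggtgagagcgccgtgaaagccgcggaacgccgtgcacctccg

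Cish had 2 matches, TTCCTGGAA from base 1 and TTCTTGGAA from base 12 counted from the annotated start. Socs3 had 1 match, TTCTTAGAA, whose first base lay at position -154. The motif was found in 8.30% of all 32851 windows in the table. The same motif with 1 more base in its middle was present in 6.95% of all windows and in 0 of the 7 windows of these genes. A match is a run of letters and not evidence of binding, and windows without one, those of Socs1, Pim1, Pim2 and Pim3, lack only these letters in these bases. Socs2 and Socs5 were not in the table.

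**Figure D2:**
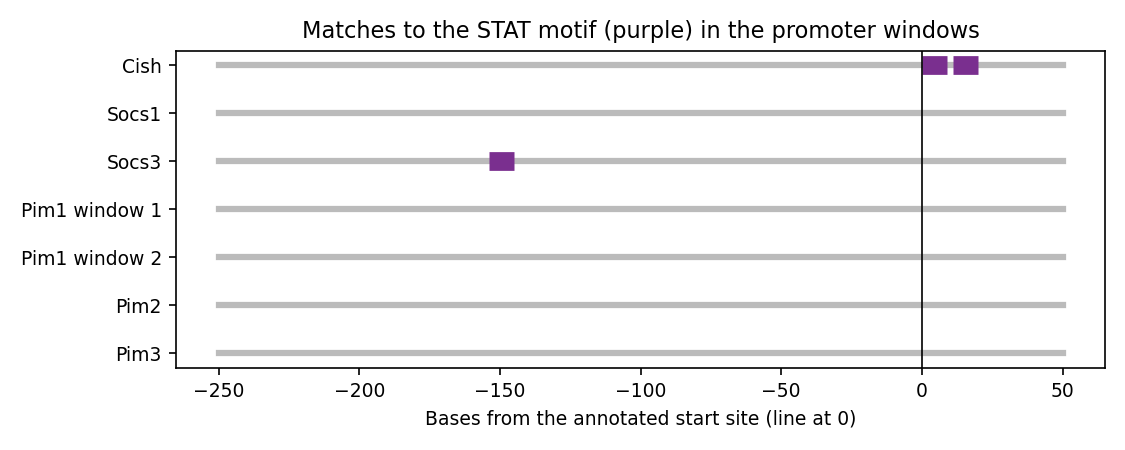
Positions of TTCNNNGAA matches (purple blocks) along the 7 promoter windows, in bases from the annotated start site. The Cish window holds 2 adjacent matches just after the start and the Socs3 window holds 1 upstream.

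Among the Pim kinases, Pim3, the member closest in sequence to Pim1, had the lowest ratio of all 8 genes. Its single probe set had 495.7 in CM and 1059 in E/EM cells. The CM signal was 2.14-fold lower, a log2 ratio of -1.10, with the weaker signal at 15.8 times the floor. It lay below the middle 90% of its 500 neighbours, whose lower end was -0.78, and 3.59% of the SubA probe sets measured had a lower ratio. As for Cish, there was no second probe set to give a spread.

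Pim2, a survival kinase of lymphocytes, had 2 SubA probe sets of very different brightness. The bright one, 101926_at, had 3827 in CM and 5714.4 in E/EM cells, and the faint one, 161233_at, had 74.9 and 131.1. Both were lower in CM cells, 1.49-fold and 1.75-fold. The ratio of Pim2 was -0.69 ± 0.16 (SD, 2 probe sets), larger than its spread but under 2-fold. The bright probe set, at -0.58, lay just inside the lower end of its neighbours' band, at -0.59. The faint one, at -0.81, lay inside a wider band that began at -1.23.

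Pim1, the first member of the family and a target of STAT5 and STAT3, had ratios close to 0. Its probe set 104533_at had 3873.1 in CM and 3383.4 in E/EM cells, and 99384_at had 1226.7 and 1065.8. Both were slightly higher in CM cells and gave nearly the same ratio, 0.20 ± 0.01 (SD, 2 probe sets). The 2 probe sets repeat each other more closely than most, but 1 array per kind of cell leaves the spread between arrays unknown, and both ratios lay well inside their neighbours' bands. The Pim kinases thus had 2 genes with a lower signal in CM cells and 1 without.

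**Figure D3:**
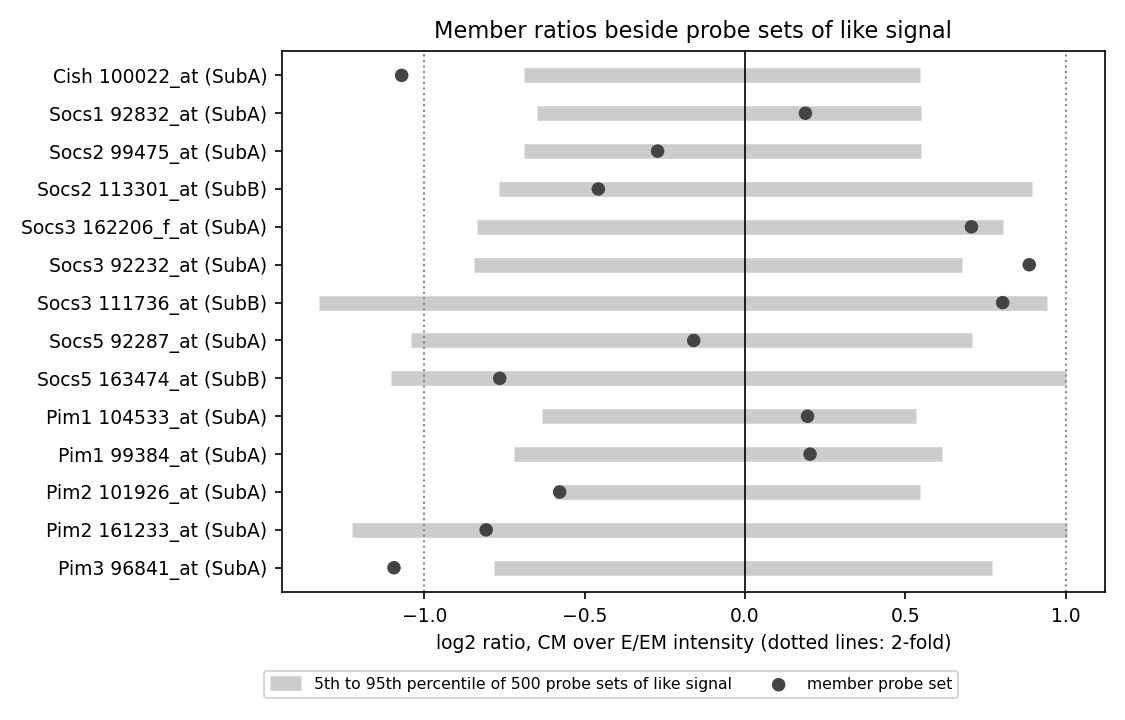
Log2 ratio of CM over E/EM intensity for the 14 probe sets above the floor on both arrays (points), with the 5th to 95th percentile of the 500 probe sets of closest mean signal on the same array type (grey bars) and 2-fold marked by dotted lines. Cish and Pim3 lie below their bars, 1 Socs3 probe set lies above its bar, and the other 11 lie inside.

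Taking the 8 genes by the 2-fold rule, 2 (Cish and Pim3) were lower in CM cells by 2-fold or more and 0 were higher by that much. Over all 10946 genes measured, the first rule took 5.61% and the second 2.73%. Both genes lay just past the 2-fold line, and with 8 genes the count describes these genes only. The median ratio of the 8 was -0.41, with 5 below 0 and 3 above, against a median of -0.0025 over all genes measured. With SubA alone, which measured all 8, the members' median was -0.22. The 5 SOCS genes had a median of -0.37 and ran from -1.07 to 0.80. The 3 Pim genes had a median of -0.69 and ran from -1.10 to 0.20. Each family held genes on both sides of 0. Of all measured genes, 4.72% had a lower ratio than Pim3, 4.95% a lower one than Cish and 10.8% a lower one than Pim2, whereas 94.8% lay below Socs3. Probe sets of a gene gave the same sign in 5 of the 5 members with at least 2 measured probe sets, against 51.4% of 4094 such genes on the arrays. The 5 include Socs5, whose faint probe set was not counted and had its higher signal in CM cells. All measured probe sets of the members lay on SubA or SubB, at 2 times the floor or more. The 4094 genes were not held to either limit, so the 2 shares are not directly comparable.

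**Figure D4:**
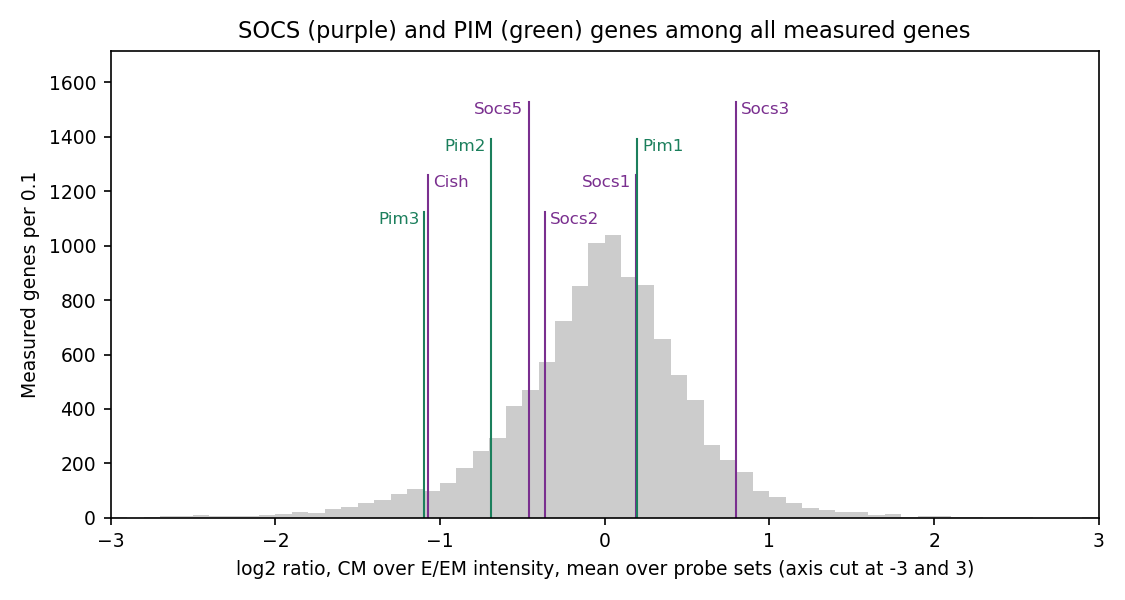
Number of measured genes per 0.1 of log2 ratio, CM over E/EM (grey), with the 8 members marked by lines (SOCS purple, PIM green). Pim3, Cish and Pim2 lie in the lower flank, Socs3 in the upper flank, and Socs1 and Pim1 near the middle. Genes beyond -3 and 3 are not shown.

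The SubA probe sets whose pair of signals was closest to that of Pim3, the member probe set with the lowest ratio, named Tmem176a, Wnk1 and Anxa1, with log2 ratios of -1.04, -0.97 and -1.25. Those closest to the Socs3 probe set 92232_at, with the highest ratio, named Traf5, Ppp6c and Marveld1, with 0.81, 0.89 and 1.02. Closeness was the Euclidean distance of both log2 intensities, 0.05 to 0.11 for these 6 probe sets. It rests on 2 arrays, so many genes can lie as close.

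The upstream part of the pathway was read from a list of the IL-2 and IL-15 receptor chains, JAKs and STATs. The median of its 13 measured genes was -0.02, and 1 of them passed 2-fold, with the lower signal in CM cells. The exception was Il2ra, the private alpha chain of the IL-2 receptor and itself a STAT5 target, with 234.2 in CM and 1340.7 in E/EM cells, a log2 ratio of -2.52. The JAK and STAT genes were all under 2-fold and ran from -0.59 for Jak3 to 0.58 for Stat4. Stat5a had a log2 ratio of 0.24 ± 0.02 and Stat5b -0.05 ± 0.09 (SD, 2 probe sets each). Jak1 had 0.22 ± 0.09 (SD, 2 probe sets), while Jak3, the kinase bound to the common gamma chain, had -0.59 on 1 probe set. Il15ra, the private chain of the IL-15 receptor, had 0.19, and the beta chain common to both receptors, Il2rb, gave -0.41 ± 0.06 (SD, 2 probe sets). Stat5b changed sign between settings of the analysis, from -0.11 to 0.02, so it has no direction.

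Other genes that STAT5 is known to control had ratios on both sides of 0. The list was not separated into genes that STAT5 raises and genes that it lowers. The median of the 14 measured was -0.27, with 5 above 0. A signal lower by 2-fold or more in CM cells was seen for 4, and one higher by that much for 0. Among all measured genes these shares were 5.61% and 2.73%. Gadd45g, a stress sensor gene, had -2.51, with 401.2 in CM and 2281.9 in E/EM cells. Prdm1, which encodes the effector transcription factor Blimp-1, had -1.36. Tnfrsf8, the receptor CD30, had -2.46 from a CM signal only 1.36 times the floor, and -0.69 with an offset of 50 in place of the floor. The cytokine gene Lta had probe sets of opposite sign, at -2.60 and 0.44, so its mean of -1.08 ± 2.15 (SD, 2 probe sets) has no direction. Among the survival genes of the list, Bcl2 had 0.47 ± 0.42 (SD, 6 probe sets) and Mcl1 0.52 ± 0.57 (SD, 2 probe sets). Both means were about as large as their spread. Every probe set of these genes was higher in CM cells, from 0.16 to 1.13 for Bcl2 and from 0.12 to 0.92 for Mcl1. Bcl2l1 had 0.0038. Myc had -0.03.

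Receptors that signal through other STATs, with 3 of their known targets, are of interest beside Socs3. The 12 measured genes had a median of 0.15, with 7 above 0, and 1 gene passed 2-fold in each direction. Il6st, which encodes gp130, the receptor chain that Socs3 acts on, had 1549.2 in CM and 512.9 in E/EM cells on its brightest probe set. Its ratio was 1.36 ± 0.24 (SD, 3 probe sets), and all 3 probe sets were higher in CM cells. Il6ra, the IL-6 binding chain, was above the floor in CM cells alone, with 339.7 against 24.2, at least 10.9-fold higher. Bcl3, a nuclear cofactor of NF-kappaB and a target of STAT3 and STAT5, went the opposite way to Socs3, with -2.12 ± 0.19 (SD, 2 probe sets). Il10rb had 0.85.

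A pair of further lists holds genes that act beside the SOCS proteins. Of 10 measured brakes other than SOCS genes (phosphatases, PIAS proteins, the adaptor Sh2b3), 0 passed 2-fold in either direction and the median was -0.01. The largest in size were Ptprc, the phosphatase CD45, at 0.53 ± 0.29 and Pias4 at -0.47 ± 0.16 (SD, 2 probe sets each). Usp18, another brake in that list, was above the floor in CM cells alone and bounded at 1.46-fold higher or more. Of 7 measured genes among the ubiquitin ligase partners of the SOCS box and the remaining SOCS genes, 0 passed 2-fold, with a median of -0.04. Elob and Eloc, the elongins that hold the SOCS box, had -0.31 ± 0.44 (SD, 2 probe sets) and 0.28 ± 0.10 (SD, 4 probe sets). Socs4, Socs6 and Socs7 had means of -0.04, -0.14 and -0.30, each with measured probe sets of opposite sign, so none has a direction. Asb2, another SOCS box protein, was above the floor in E/EM cells alone, with 290.3 against 41.9, at least 3.29-fold lower in CM cells.

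Downstream of the Pim kinases, 14 known or proposed substrates were measured, and their median was 0.03 with 7 on either side of 0. By the 2-fold rule 3 were lower in CM cells and 0 higher, where all measured genes gave 5.61% and 2.73%. Cdkn1a, the cell cycle inhibitor p21, had -3.55 ± 0.57 (SD, 2 probe sets), from 133.8 in CM and 2066 in E/EM cells on its brightest probe set. Eif4ebp1, the repressor of cap-dependent translation, had -1.61, and the transcription factor gene Myb had -1.10, which became -0.70 with an offset of 50. Bad, the death promoter that Pim kinases inactivate, had 0.12 ± 0.12 (SD, 2 probe sets). The arrays measured transcripts, so they say nothing of the phosphorylation of these proteins.

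**Figure D5:**
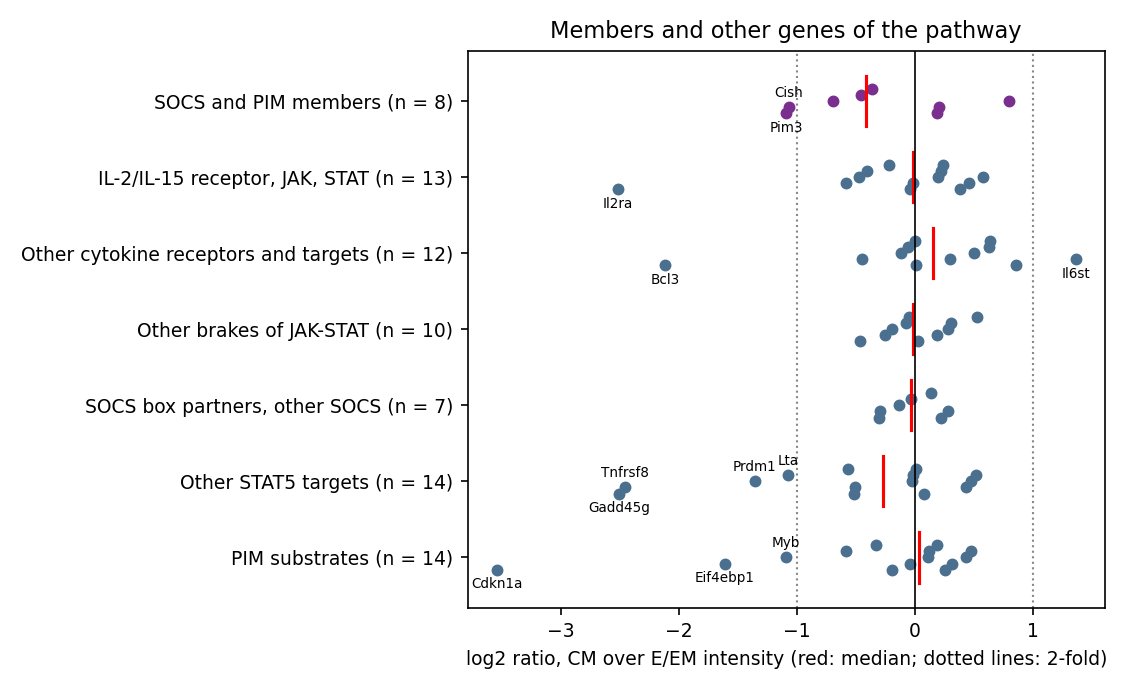
Log2 ratio of CM over E/EM intensity for the 8 members and for the measured genes of 6 lists of the pathway (points, with vertical jitter), with the median in red and genes past 2-fold named. The members' median is -0.41 and those of the lists run from -0.27 to 0.15. The order of the members and the other STAT5 targets depends on the setting, since with SubA alone their medians were -0.22 and -0.51.

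Over the 6 lists together, 9 of 70 measured genes were lower in CM cells by 2-fold or more and 1 was higher. Over all 10946 genes measured, 5.61% were lower and 2.73% higher by that rule. The 9 include Lta, whose mean has no direction. They also include Tnfrsf8 and Myb, which came under 2-fold, at -0.69 and -0.70, with the offset in place of the floor. A further 1 in each direction, Asb2 and Il6ra, was bounded past 2-fold at the floor, against 16.2% lower and 6.54% higher among all 1529 genes with such a bound. The T cell identity of both samples was visible in the marker genes, since all 8 T cell and CD8 markers were measured in both, with a summed SubA intensity of 48491.3 in CM and 47330.9 in E/EM cells. B cell markers summed to 577.3 and 540. Myeloid markers summed to 966.1 in CM and 1960.7 in E/EM cells, lower in CM cells for 5 of 5 measured genes, and Lyz2, Itgam and Fcer1g lay under the floor in both. The measured ones were Cebpb at -1.26, Cd68 at -1.16, Cd14 at -0.63, Csf3r at -0.50 and Csf1r at -0.06. Cebpb alone gave 514.9 of the myeloid sum in CM and 1232.4 of that in E/EM cells. The helper T cell markers were split. Cd4 had 131.7 in CM and 49.3 in E/EM cells on SubA. Zbtb7b had 63.3 and 857.9 on SubB, at least 9.74-fold lower in CM cells. Cd40lg, at 19.4 and 2.1, lay under the floor in both. The summed intensity of the helper markers on SubA, without that SubB probe set, was 170.9 and 290.9. Cish, Socs2, Pim2 and Pim3 were lower in CM cells as the myeloid markers were, and Socs3 was higher. Socs1 and Pim1 differed little, and no difference was distinguished for Socs5. The part of such cells in the ratios was not tested.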

How the data were processed

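Total RNA of 2 kinds of cultured mouse CD8+ T cells was measured on 3 array types, 1 array per kind and type, and samples were grouped by their titles. The values the authors deposited are linear probe set intensities, with their software not given in the sources used here. On each array the mean intensity, without its lowest and highest 2%, lay between 500.1 and 500.3, so the arrays look scaled to 1 target and were used without further normalization.

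Symbols were those of GEO's annotation of each platform. Probe sets with several symbols or none, and control probe sets, named no gene. The 8 members' symbols matched RefSeq by Entrez identifier. Probe sets have no coordinates here, since no source names their build.

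To set the floor of an array type, the 90th percentile over 15 bacterial control probe sets was taken on both arrays and the higher value used. From 47.1% to 69.1% of probe sets exceeded it, fewest on SubC. The 3'/5' ratio of the actin control, a sign of RNA integrity, ran from 1.06 to 1.17. Precision is limited by the number of arrays. A gene that exceeded the floor in CM or in E/EM cells alone is given as at least N-fold, its signal over the floor, from the probe set with the largest such ratio.

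The members and lists were chosen with earlier results of these data known. Named genes were all members, list genes past 2-fold, up to 2 more per list, the IL-2 and IL-15 receptor chains with their kinases and STAT5 genes, and the 3 probe sets nearest in signal to the extreme members. Eloc, Usp18, Bcl2, Bcl2l1, Mcl1, Myc, Il10rb, Bad and the remaining SOCS genes were named for their roles after their values were seen. Calculations used Python 3.11.15 with pandas 2.3.3 and numpy 2.4.6 and were tested on simulated data. The alternatives were quantile normalization, centring, other floors, an offset, other choices of probe sets and array types, and a 1.5-fold rule.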

Additional observations from a re-analysis of the deposited data

How the results depend on the processing

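No paired analysis was possible because each kind of cell had 1 array per array type. In every setting that measured them, the 8 members kept the sign of their ratio. Cish ran from -1.09 to -1.05 and Pim3 from -1.12 to -1.02, both past 2-fold throughout. Socs3 ran from 0.70 to 0.89, Pim2 from -0.71 to -0.55, and Socs5 from -0.77 to -0.07. Socs2 moved to -0.85 with the floor halved and to -0.61 with no floor and an offset of 50, which bring in its faint probe set. With that offset Socs3 had 0.70 and Pim1 0.19, and with tables centred on their median Pim1 had 0.18, shifts past their small spread over probe sets. SubB and SubC alone, which hold no probe set of Cish or Pim3, left 0 members lower and 1 pathway gene lower. The 1.5-fold rule gave 3 members lower and 1 higher, Socs3, and 11 pathway genes lower and 4 higher. It gave 1521 genes lower (13.9%) and 1104 higher (10.1%) over all genes. The floor halved gave 948 lower and 480 higher genes, the floor doubled 385 lower, and SubA alone 256 lower and 123 higher. The floor halved and the offset each gave 2 pathway genes higher. Of 141 values under the alternatives, 18 moved past their limits. The medians of 5 of the 6 lists changed sign in at least 1 setting, so no direction is given for those lists. For the other STAT5 targets the change came only with SubB and SubC alone, which measured 4 of the genes, with a median of 0.49. In the remaining settings the median of that list ran from -0.51 to -0.21. Weak signals near the floor limit Socs5, Tnfrsf8 and the faint Socs2 probe set.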
